A study of Mus musculus with 16 samples.

Results

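The ROCK and non-muscle myosin II contractility genes are 10 genes taken by symbol from a list of the pathway that was drawn up with earlier results of these data known: the kinases Rock1 and Rock2, the heavy chain Myh9, the light chains Myl12a, Myl12b and Myl6, the myosin phosphatase subunits Ppp1r12a and Ppp1cb, and the LIM kinases Limk1 and Limk2. All 10 of 10 were found among the 49585 Ensembl gene identifiers of the deposited count tables. The series measured RNA of neutrophils sorted from mouse bones, in a study of HIF2α and neutrophil motility, and it holds 16 libraries from C57BL/6 mice aged 8 to 12 weeks. The group P2KO is labelled Vav:cre-PHD2f/f, a conditional deletion of PHD2 (gene Egln1), the oxygen-sensing enzyme that marks HIF proteins for degradation, and P2WT is its wild-type control. The group P2H2KO is labelled Vav:cre-PHD2/HIF2ff/ff, which lacks PHD2 and HIF2α (gene Epas1) together, and P2H2WT is its wild-type control. Each group has 4 libraries, P2KO and P2WT are called the P2 line here, and P2H2KO and P2H2WT the P2H2 line. Vav:cre is active in blood cells in general, not in neutrophils alone, and whether the controls carry Cre or floxed alleles is not given in the sources used here. Nothing in the labels says whether a library is 1 mouse or a pool, so p-values measure the spread between these libraries, which may be partly technical.

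Non-muscle myosin II is the motor that pulls on actin filaments at the rear and cortex of a moving neutrophil. The ROCK kinases phosphorylate the regulatory light chains directly and also inhibit myosin phosphatase, so that light chain phosphorylation and contraction rise. ROCK also phosphorylates the LIM kinases, which inactivate cofilin and so stabilise actin filaments. These steps are controlled largely by phosphorylation, which RNA counts do not measure.

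Counts summed to between 23450746 and 28601284 per library. The 10 neutrophil markers were all detected, with a summed level of 15645 to 43779 CPM per library. CPM are counts per 1000000 reads of a library size that was scaled by TMM normalization, as described under processing. The 10 erythroid markers analysed, which define red cell precursors, summed to 26112 to 53305 CPM, with Slc4a1, the red cell anion exchanger, at 4115 to 7997 CPM. RNA of red cell precursors was thus abundant in libraries labelled as sorted neutrophils. How the sums compare depends on the lists, since the neutrophil list leaves out Ltf, Camp, Ngp and Lcn2. These 4 are in a late granule list of 9 genes, which summed to 19810 to 49852 CPM. In bulk RNA, fewer cells of a type and less RNA per cell cannot be told apart. Egln1 averaged 49.5 ± 6.40 CPM (SD, n = 4) in P2KO and 48.7 ± 2.21 CPM (SD, n = 4) in P2WT. Epas1 averaged 5.65 ± 2.17 CPM (SD, n = 4) in P2H2KO and 3.56 ± 1.02 CPM (SD, n = 4) in P2H2WT. Neither targeted gene was lower in the libraries labelled deficient, and gene-level counts do not show whether the floxed exons are missing, so P2KO and P2H2KO below mean the libraries labelled so.

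Per kilobase of annotated exon, the heavy chain Myh9 was the most abundant of the 10 transcripts, and Rock2 and the LIM kinases were the least. The length used is the union of exons over all annotated transcripts of a gene. It is 12928 bases for Myh9 and 3187 for Myl6, whose 15 transcripts merge into 2 blocks. This union can be longer than the transcripts expressed, so the order of genes holds for this length only. Myh9, the heavy chain that carries the ATPase, had a mean level of 141 CPM per kilobase over 16 libraries, above Myl12b in 16 of 16 libraries. Myl12b, a regulatory light chain, followed at 96.5 CPM per kilobase. The next 3 transcripts were close together: Ppp1cb, the phosphatase catalytic subunit, at 72.2, Myl6, the essential light chain, at 71.1, and Myl12a, the other regulatory light chain, at 69.3 CPM per kilobase. Their order was not fixed, since Ppp1cb exceeded Myl6 in 9 of 16 libraries and Myl6 exceeded Myl12a in 11 of 16. Ppp1r12a, the subunit that targets the phosphatase to myosin, had 18.6 CPM per kilobase, and Rock1 13.2 CPM per kilobase. Rock2 at 6.40 and Limk2 at 5.98 CPM per kilobase exchanged places between libraries, with Rock2 higher in 11 of 16, and Limk1 was lowest at 2.25 CPM per kilobase. Every member passed the filter on low counts, and the lowest single count was 246 reads, for Limk1, where counting error alone is 6.38%. Across the 16 libraries the coefficient of variation was largest for Myh9, at 19.4%, and Limk1, at 18.2%, and smallest for Ppp1cb, at 7.27%.

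**Figure D1:**
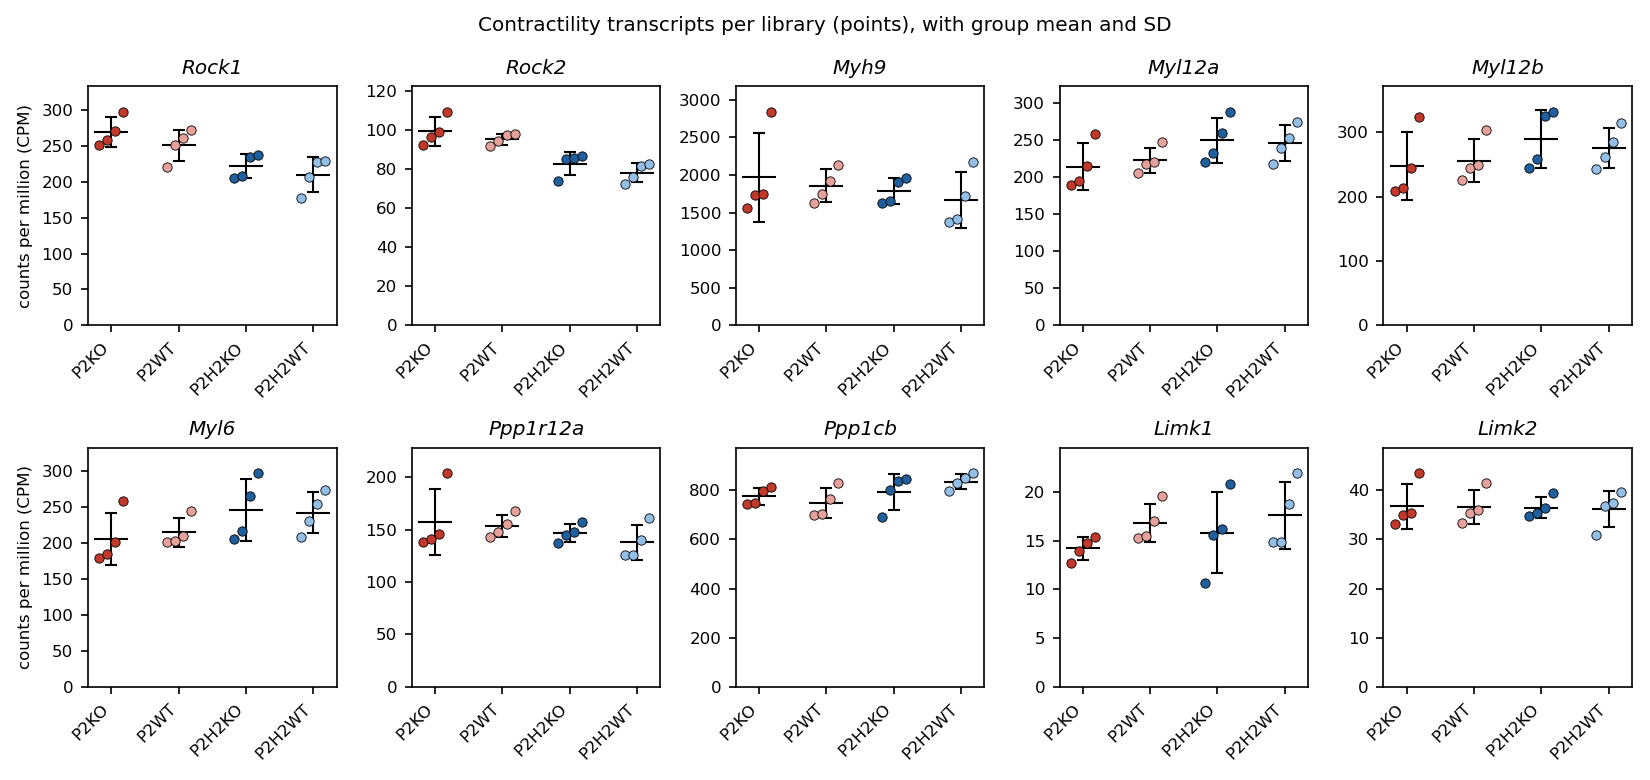
Level of each of the 10 transcripts in CPM (vertical axes from 0, a separate scale for each gene) by group (horizontal axes), with 1 point per library and the group mean and SD in black. All 8 Rock2 points of the P2 line lie above all 8 of the P2H2 line, and in P2KO 1 library stands high for Myh9 at 2843 CPM and for Ppp1r12a at 204 CPM.

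Within each line, none of the 10 transcripts was called as different between the libraries labelled deficient and their controls. In P2KO against P2WT, edgeR's quasi-likelihood test with Benjamini-Hochberg adjustment over all genes called 0 of 10 members at an adjusted p under 0.05, beside 0.0437% of 13734 genes tested. At an unadjusted p under 0.05 it gave 1 of 10 members, beside 3.49% of all genes, and DESeq2 called 0 of 10. In P2H2KO against P2H2WT, edgeR called 0 of 10 members, beside 0.0744% of 13435 genes, with 0 of 10 at an unadjusted p under 0.05, beside 2.63% of genes, and DESeq2 called 0. The median log2 fold change of the members was 0.03 in the P2 line and 0.05 in the P2H2 line, beside 0.02 and 0.00 over all genes tested. In neither line did the 4 deficient and 4 control libraries separate without overlap for any member, whereas 2.25% of genes in the P2 line and 1.71% in the P2H2 line did so. In a set of 20 two-sided tests by exact permutation, made on log2(CPM + 1), for which 4 against 4 libraries allow no p below 0.0286, the smallest was 0.0571, for Limk1 in the P2 line, and the smallest adjusted p was 0.939.

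**Figure D2:**
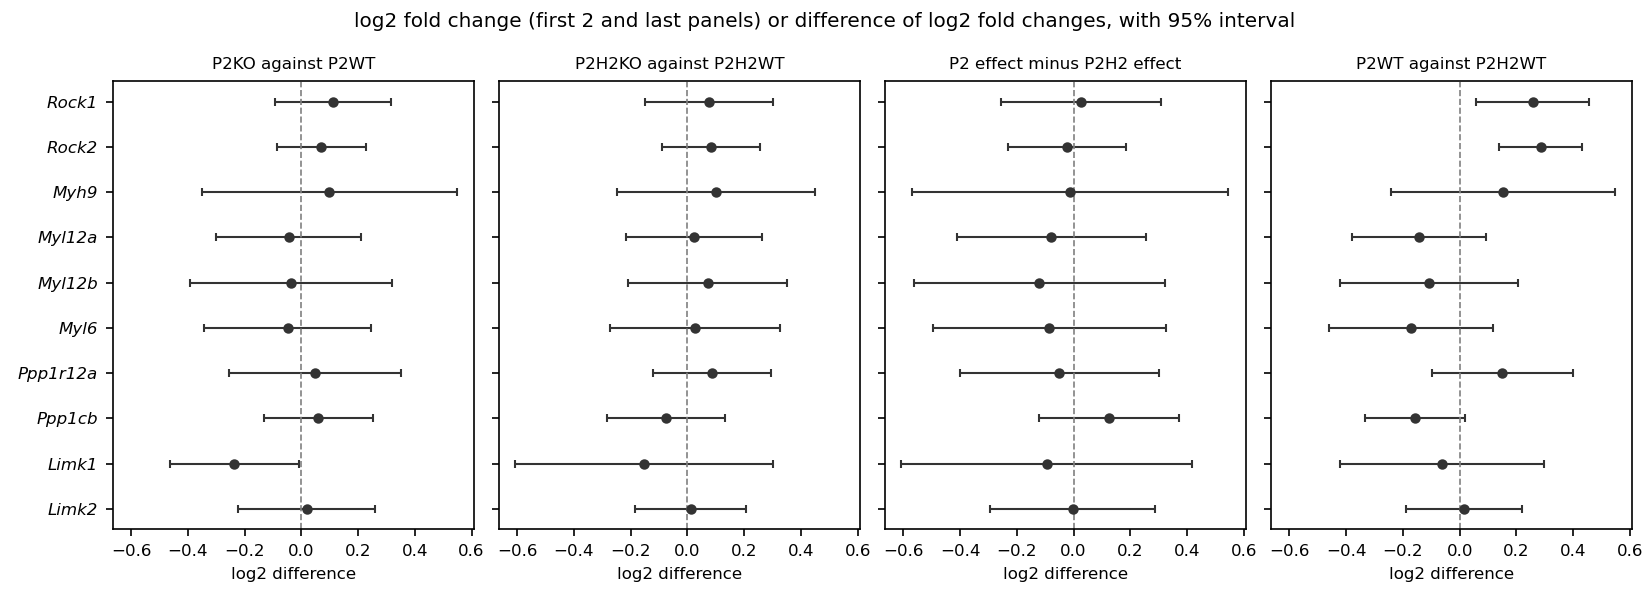
Log2 fold change of each transcript (horizontal axis, with its 95% interval) in P2KO against P2WT, P2H2KO against P2H2WT and P2WT against P2H2WT, and in the third panel the P2 change minus the P2H2 change. Most intervals cross 0; Limk1 in P2KO against P2WT, at −0.24, and Rock1 and Rock2 in P2WT against P2H2WT, at 0.26 and 0.29, do not.

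Rock1 and Rock2, the kinases at the head of the pathway, overlapped between genotypes and had higher means in both groups of the P2 line than in either group of the P2H2 line. Rock1 lies at chr18:10064401-10182045 and Rock2 at chr12:16894895-16987823 (GRCm38), and each is protein-coding; the pseudogene Gm5374, 97.1% identical to Rock1 over 660 bases, was not analysed here. Rock2 measured 92.2, 99.0, 109 and 96.6 CPM in P2KO and 97.8, 97.4, 91.9 and 94.3 CPM in P2WT. In the other line Rock2 measured 85.7, 86.6, 84.9 and 74.0 CPM in P2H2KO and 76.2, 82.8, 72.1 and 81.7 CPM in P2H2WT. Every one of the 8 P2 libraries was thus above every one of the 8 P2H2 libraries, a separation shown by 1 of 10 members and by 1.24% of 14080 genes in this direction, while the genotypes overlapped within each line. Rock1 measured 258, 270, 298 and 251 CPM in P2KO and 261, 272, 221 and 251 CPM in P2WT. Values of Rock1 in the P2H2 line were 238, 234, 208 and 206 CPM in P2H2KO and 207, 229, 177 and 227 CPM in P2H2WT. Rock1 was higher in all P2KO than in all P2H2KO libraries, as was Rock2, so 2 of 10 members separated there, beside 4.42% of genes in this direction. Neither was called in that comparison, added after seeing the data, with adjusted p from edgeR of 0.188 for Rock1 and 0.0947 for Rock2. The P2WT and P2H2WT libraries overlapped for Rock1 and separated for Rock2, which makes 1 of 10 members beside 5.18% of genes.

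The differences between genotypes were small for both kinases. Rock1 had a log2 fold change of 0.11 (SE 0.091, 95% interval −0.09 to 0.32) in P2KO against P2WT and of 0.08 (SE 0.10, 95% interval −0.15 to 0.30) in P2H2KO against P2H2WT. For Rock2 these were 0.07 (SE 0.070, 95% interval −0.09 to 0.23) and 0.08 (SE 0.076, 95% interval −0.09 to 0.25), and edgeR gave an adjusted p of 1 for each of the 4 values. With 4 libraries a group, these intervals leave room for no difference and for differences of any size within them.

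Between the control groups, P2WT against P2H2WT, the log2 fold change was 0.29 (SE 0.069, 95% interval 0.14 to 0.43) for Rock2 and 0.26 (SE 0.094, 95% interval 0.06 to 0.46) for Rock1. The adjusted p from edgeR was 0.100 for Rock2 and 0.309 for Rock1, so neither was called, beside 0.227% of 14080 genes. Unadjusted, 2 of 10 members had a p under 0.05, both higher in P2WT, beside 6.94% of genes higher at that p. DESeq2 called 1 of 10 members, Rock2, with an adjusted p of 0.0084. With the m or f suffix of the library titles as a covariate, edgeR called both, with an adjusted p of 0.0348 for Rock2 and 0.0446 for Rock1. A contrast of the lines over both genotypes, added after seeing the data, gave 0.27 (SE 0.049) for Rock2 and 0.27 (SE 0.066) for Rock1 on the log2 scale, with adjusted p from edgeR of 0.0049 and 0.0265, and it called 5.51% of all genes. Each line is a table of its own, so a difference between lines cannot be told apart from one between the tables or library sets. Bone stroma markers moved with the line. Their summed level over 7 genes was 490 to 1371 CPM in P2 libraries and 177 to 324 CPM in P2H2 libraries. None of the 7 was at 0 throughout a group, though the lowest library value of Bglap was 0 CPM. The 7 endothelial markers summed to 103 to 221 CPM in P2 and 77.0 to 99.1 CPM in P2H2 libraries, with none at 0. Other lists also lay wholly above or below 0 in P2WT against P2H2WT. All 10 megakaryocyte and platelet genes were above it, with a median log2 fold change of 0.72. All genes of the neutrophil, late granule, erythroid, and eosinophil and basophil lists were below it, with medians from −0.29 to −0.17. The part of all these cells in the Rock1 and Rock2 values was not tested.

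Rock1 and Rock2 rose and fell together from library to library within each line. Over the 8 libraries of the P2 line, Pearson's r of log2(CPM + 1) was 0.845 (exact permutation p = 0.0163, adjusted over 12 relations 0.0392) and Spearman's rho 0.857 (exact permutation p = 0.0107, adjusted 0.0321). Over the 8 libraries of the P2H2 line, r was 0.834 (exact permutation p = 0.00618, adjusted 0.0185) and rho 0.905 (exact permutation p = 0.00456, adjusted 0.0183). Without the 2 libraries farthest from the Rock1 median, r was 0.584 in the P2 line and 0.680 in the P2H2 line. The genes whose deviations from the group means were most like those of Rock1 over 16 libraries, among 9812 genes with at least 5 CPM, were Arid4b, Golga2 and Upf2, with r of 0.949, 0.936 and 0.931. For Rock2 they were Chd4, Son and Kat6a, with r of 0.943, 0.936 and 0.927. The r between Rock1 and Rock2 themselves on this measure was 0.817, below that of each of these other genes.

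Myh9, the heavy chain of non-muscle myosin IIA (chr15:77760587-77842175, GRCm38), was not called by genotype, and its highest value stood alone. It measured 1737, 1741, 2843 and 1556 CPM in P2KO and 1920, 1747, 1624 and 2128 CPM in P2WT. Myh9 in P2H2 libraries was at 1651, 1908, 1958 and 1633 CPM in P2H2KO and 1413, 1724, 1371 and 2172 CPM in P2H2WT. P2KO replicate 6 was far above the other 3 P2KO libraries, which lay at or below most controls, and the groups overlapped in both lines. The log2 fold change was 0.10 (SE 0.199, 95% interval −0.35 to 0.55) in the P2 line and 0.10 (SE 0.155, 95% interval −0.25 to 0.45) in the P2H2 line, with an adjusted p from edgeR of 1 in each. Without P2KO replicate 6 the P2 value turned to −0.13, and the P2H2 value was 0.02 without P2H2WT replicate 16 and 0.25 without P2H2WT replicate 18. The late granule markers are secondary and tertiary granule genes together with the receptor genes Ltb4r1 and Cxcr2. Of the P2 line, P2KO replicate 6 had the highest late granule markers, 45898 CPM summed over 9 genes. It also had the lowest erythroid markers of that line, 26112 CPM over 10 genes. Myh9 followed the late granule score, the mean log2(CPM + 1) of those 9 genes, in the P2 line, with r of 0.904 (exact permutation p = 0.0016, adjusted over 60 relations 0.0153), rho of 0.810 (exact permutation p = 0.0218, adjusted 0.0817) and r of 0.596 without the 2 farthest libraries. For the P2H2 line r was 0.308 (exact permutation p = 0.449, adjusted 0.633), rho 0.119 (exact permutation p = 0.793, adjusted 0.898) and r without the 2 farthest libraries 0.207. The part of late granule marker content in the Myh9 values was not tested beyond these fits. All score relations were computed after seeing the data.

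The 3 light chains were likewise not called by genotype, and they varied together across libraries. Myl12a and Myl12b encode near-identical regulatory light chains, the substrates that ROCK and myosin light chain kinase phosphorylate, and Myl6 encodes the essential light chain that stiffens the myosin lever arm. Myl12a (chr17:70993656-71002878) and Myl12b (chr17:70973133-70990890) are neighbours on the minus strand of GRCm38. Their coding sequences have 519 bases each, differ at 18 and are 96.5% identical, and the longest identical run is 105 bases. The stretch with the most differing bases is shown because it holds 10 of the 18 coding bases by which a read can be told to come from 1 gene or the other: coding positions 55 to 204 from GENCODE M21 transcripts, with capitals at the 10 bases that differ. It spans 2 exons, within chr17:70996252-70996826 for Myl12a and chr17:70975601-70977177 for Myl12b, minus strand.
Myl12a: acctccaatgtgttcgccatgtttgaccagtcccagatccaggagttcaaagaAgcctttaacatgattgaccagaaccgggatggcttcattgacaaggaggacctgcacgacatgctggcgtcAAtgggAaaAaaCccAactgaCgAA
Myl12b: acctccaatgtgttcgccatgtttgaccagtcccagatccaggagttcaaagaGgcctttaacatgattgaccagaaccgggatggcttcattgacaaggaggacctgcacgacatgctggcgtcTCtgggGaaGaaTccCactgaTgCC
The differing bases crowd at the 3′ end of the stretch, and the 5′ part holds 1 difference only. The other 8 differing coding bases lie outside it, and the untranslated exons were not compared. How reads that fit both genes were counted is not given in the sources used here. A second Myl12b identifier, not analysed here, has exons that overlap those of Myl12a by 462 bases and those of the analysed Myl12b by 739 bases. Exons of Myl12a also overlap those of Myom1, a muscle gene on the plus strand, by 207 bases. Myom1 averaged 1.71 CPM, and the Myl12a-like pseudogene Gm6517 averaged 0.212 CPM. For Myl6, 5 processed pseudogenes are near-identical, and none exceeded 0.611 CPM in any library.

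Myl12a ranged from 189 to 258 CPM in P2KO, 206 to 246 in P2WT, 219 to 288 in P2H2KO and 217 to 274 CPM in P2H2WT. Myl12b ranged from 208 to 324 CPM in P2KO, 226 to 303 in P2WT, 244 to 332 in P2H2KO and 242 to 315 CPM in P2H2WT. Myl6 (chr10:128490860-128494145, GRCm38) ranged from 178 to 258 CPM in P2KO, 201 to 244 in P2WT, 206 to 297 in P2H2KO and 208 to 273 CPM in P2H2WT. Groups of each line overlapped for all 3 genes. In P2KO against P2WT the log2 fold change was −0.04 (SE 0.113) for Myl12a, −0.04 (SE 0.157) for Myl12b and −0.05 (SE 0.130) for Myl6. In P2H2KO against P2H2WT it was 0.02 (SE 0.106), 0.07 (SE 0.124) and 0.03 (SE 0.133), and edgeR's adjusted p was 1 for each. Adding the counts of Myl12a and Myl12b into 1 feature kept the sign in every comparison. Between the control groups the light chains stood on the other side of 0 from the ROCK kinases, at −0.14 for Myl12a, −0.11 for Myl12b and −0.17 for Myl6 (SE 0.111, 0.147 and 0.136), with adjusted p from edgeR of 0.770, 0.898 and 0.777. Over both genotypes, the line contrast gave −0.18 for Myl12a and −0.21 for Myl6, with adjusted p from edgeR of 0.186 and 0.210.

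In the P2 line the r of Myl12a with Myl12b was 0.995 (exact permutation p = 2.5e-05, adjusted 0.000298) and rho was 1 (exact permutation p = 5.0e-05, adjusted 0.000595). The P2H2 line gave r of 0.957 (exact permutation p = 0.000422, adjusted 0.00253) and rho of 0.976 (exact permutation p = 0.000397, adjusted 0.00238). Without the 2 libraries farthest from the Myl12a median, r was still 0.993 and 0.932, so the relation did not rest on the extreme libraries. Shared reads could contribute to this pair, and their part was not tested; Myl6, which is not near-identical to either, had r of deviations from group means of 0.987 with Myl12a and 0.974 with Myl12b over 16 libraries. The genes most like Myl12a on that measure were Pfn1, Myl6 and Tmsb4x, with r of 0.988, 0.987 and 0.987.

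The light chains followed the late granule score in both lines. For Myl6, r was 0.977 in the P2 line (exact permutation p = 0.000942, adjusted 0.0113) and 0.905 in the P2H2 line (exact permutation p = 0.00226, adjusted 0.0153). Its rho was 0.833 in the P2 line (exact permutation p = 0.0154, adjusted 0.0659) and 0.929 in the P2H2 line (exact permutation p = 0.00223, adjusted 0.0304), and r without the 2 farthest libraries was 0.871 and 0.762. Myl12a and Myl12b had r of 0.971 and 0.974 in the P2 line (exact permutation p = 0.000645 and 0.000546, adjusted 0.0113 for each) and 0.925 and 0.927 in the P2H2 line (exact permutation p = 0.000942 and 0.00191, adjusted 0.0113 and 0.0153). Their rho was 0.833 for each in the P2 line (adjusted exact permutation p = 0.0659) and 0.905 and 0.881 in the P2H2 line (adjusted exact permutation p = 0.0304 and 0.0435), and r without the 2 farthest libraries ran from 0.784 to 0.877. Against the erythroid score the signs were opposite, with r of −0.858 for Myl6 in the P2 line and −0.681 in the P2H2 line (exact permutation p = 0.00518 and 0.0503, adjusted 0.0239 and 0.144), rho of −0.905 and −0.786 (exact permutation p = 0.00456 and 0.0279, adjusted 0.0304 and 0.0931) and r of −0.834 and −0.809 without the 2 farthest libraries. Late granule and erythroid levels vary between libraries of every group, and the part of cell content in the light chain values was not tested further. For Rock1 and Rock2 no such relation was called: with the late granule score, r was 0.402 and 0.448 in the P2 line and −0.141 and −0.251 in the P2H2 line (adjusted exact permutation p from 0.471 to 0.868), rho ran from −0.429 to 0.262 (adjusted exact permutation p from 0.513 to 0.868) and r without the 2 farthest libraries from −0.442 to 0.085. Whether the r of the light chains and of the kinases differ was not tested. Of 60 relations between members and the 3 scores, 16 had an adjusted p of Pearson's r under 0.05, and 10 of these also for rho. The share of all genes related as strongly to these scores was not computed. These relations therefore cannot be called particular to the members.

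**Figure D3:**
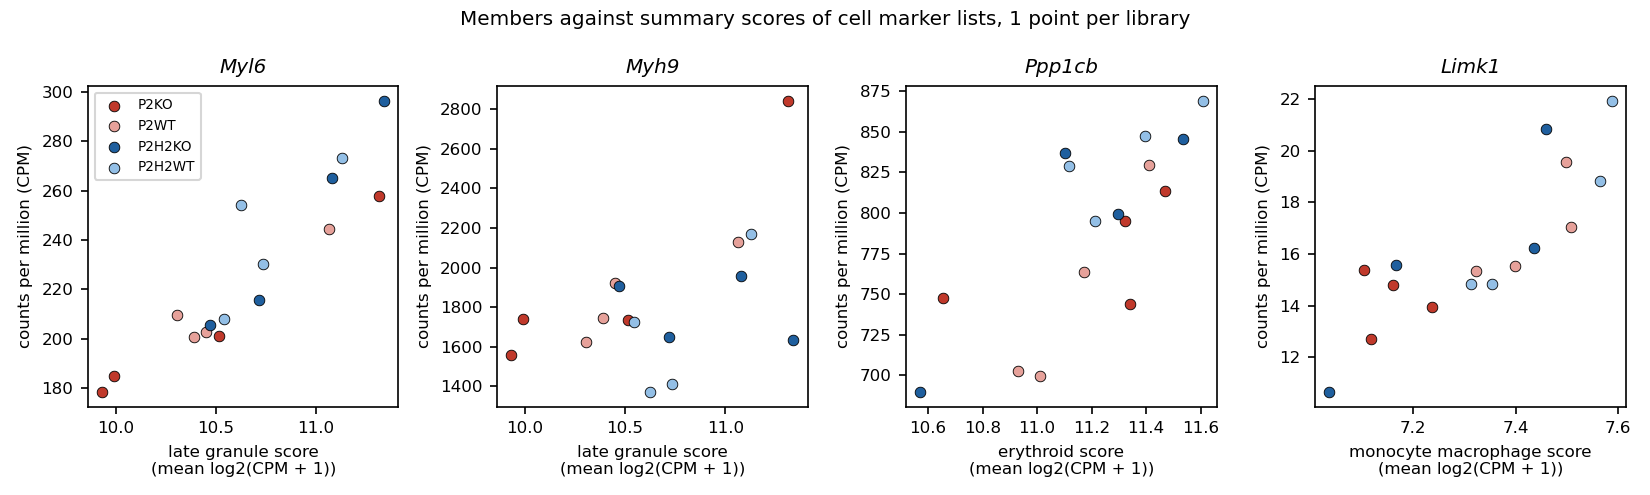
Level of Myl6, Myh9, Ppp1cb and Limk1 in CPM (vertical axes, not starting at 0) against the late granule, late granule, erythroid and monocyte and macrophage scores (horizontal axes, mean log2(CPM + 1) of the list), with 1 point per library coloured by group. Myl6 rises with the late granule score in both lines (r of 0.977 and 0.905), and Myh9 does so in the P2 line (r of 0.904) with 1 P2KO library at the top.

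Upstream sequence was examined for 1 motif of the HIF pathway that the study targets. The 250 bases upstream of the RefSeq start (GRCm38.p6, gene strand) are shown for Myl12a and Myl12b, neighbours whose transcripts varied together, and for Rock2 because it separated the lines, with capitals at each match to the core HIF binding motif, ACGTG or GCGTG on either strand. They lie at chr17:71002534-71002783 (minus strand) for Myl12a, chr17:70990517-70990766 (minus strand) for Myl12b and chr12:16894728-16894977 (plus strand) for Rock2.
Myl12a upstream: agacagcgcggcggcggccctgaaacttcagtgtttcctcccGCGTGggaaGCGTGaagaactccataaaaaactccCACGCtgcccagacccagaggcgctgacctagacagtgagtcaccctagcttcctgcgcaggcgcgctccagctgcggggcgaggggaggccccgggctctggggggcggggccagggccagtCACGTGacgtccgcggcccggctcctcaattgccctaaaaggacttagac
Myl12b upstream: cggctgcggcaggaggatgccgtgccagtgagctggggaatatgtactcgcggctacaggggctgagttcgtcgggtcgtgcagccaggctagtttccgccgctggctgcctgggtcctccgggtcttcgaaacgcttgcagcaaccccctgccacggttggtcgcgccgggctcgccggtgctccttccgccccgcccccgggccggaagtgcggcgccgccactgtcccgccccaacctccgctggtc
Rock2 upstream: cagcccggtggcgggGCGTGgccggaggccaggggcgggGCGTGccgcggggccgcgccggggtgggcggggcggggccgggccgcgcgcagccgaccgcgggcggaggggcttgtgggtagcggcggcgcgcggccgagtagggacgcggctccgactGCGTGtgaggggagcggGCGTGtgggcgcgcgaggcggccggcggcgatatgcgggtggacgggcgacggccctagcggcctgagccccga
Myl12a had 4 matches, Myl12b 0 and Rock2 4, where a run that reads as the motif on both strands was counted once. A match in 300 bases (250 before the start to 50 after) is common: 43.8% of 32851 such windows in the RefSeq table held 1 or more. Of the 10 members, 9 had a window in that table (Rock1 had none), and some had more than 1, so that 13 windows were searched. A match was found in 8 of the 13. The CArG box, the motif of serum response factor, was found in 1.63% of all windows and in 1 of the 13 member windows, a start site of Myl6. No binding was measured here, so these matches describe letters only.

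Myosin phosphatase removes the phosphate that ROCK adds. Ppp1r12a, its myosin-targeting subunit and a direct ROCK substrate (chr10:108162193-108284475, GRCm38), measured 146, 141, 204 and 138 CPM in P2KO and 155, 148, 143 and 168 CPM in P2WT. As for Myh9, P2KO replicate 6 was the high library, and the other 3 P2KO libraries lay within or below the control range. Across the P2H2 line Ppp1r12a measured 137, 148, 158 and 145 CPM in P2H2KO and 126, 140, 126 and 161 CPM in P2H2WT, with overlapping groups. Its log2 fold change was 0.05 (SE 0.134, 95% interval −0.25 to 0.35) in the P2 line, −0.10 without P2KO replicate 6, and 0.09 (SE 0.092, 95% interval −0.12 to 0.29) in the P2H2 line, with an adjusted p from edgeR of 1 in each. Ppp1r12a was the gene most like Myh9, and Myh9 the gene most like Ppp1r12a, among the 9812 genes searched, with r of 0.979 over 16 libraries. With the late granule score, Ppp1r12a had r of 0.925 in the P2 line (exact permutation p = 0.000347, adjusted 0.0113), rho of 0.929 (exact permutation p = 0.00223, adjusted 0.0304) and r of 0.783 without the 2 farthest libraries. The P2H2 line gave r of 0.506 (exact permutation p = 0.197, adjusted 0.357), rho of 0.357 (exact permutation p = 0.389, adjusted 0.615) and r of 0.370 without them. After its partner in this pair, the most alike were Itsn2 and Svil for Myh9, with r of 0.973 and 0.964, and R3hdm2 and Kdm6b for Ppp1r12a, each with r of 0.973.

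Ppp1cb, the catalytic subunit (chr5:32458843-32517433, GRCm38), was the member with the smallest coefficient of variation. It ranged from 744 to 813 CPM in P2KO, 700 to 829 in P2WT, 689 to 845 in P2H2KO and 795 to 869 CPM in P2H2WT. The log2 fold change was 0.06 (SE 0.085) in the P2 line and −0.07 (SE 0.092) in the P2H2 line, with an adjusted p from edgeR of 1 in each. No relation with its partner subunit was called: r of Ppp1r12a with Ppp1cb was −0.266 in the P2 line and −0.407 in the P2H2 line (exact permutation p = 0.560 and 0.345, adjusted 0.672 and 0.518), with rho of −0.143 and −0.333 (exact permutation p = 0.752 and 0.428, adjusted 0.820 and 0.616) and r of 0.226 and −0.595 without the 2 farthest libraries. With the erythroid score, Ppp1cb had r of 0.690 in the P2 line (exact permutation p = 0.0616, adjusted 0.161) and 0.890 in the P2H2 line (exact permutation p = 0.0097, adjusted 0.0388), and rho of 0.690 and 0.762 (exact permutation p = 0.0694 and 0.0368, adjusted 0.174 and 0.116). Within the P2H2 line r was 0.345 without the 2 farthest libraries, so that relation rested on them, and in the P2 line it was 0.860. Exons of Ppp1cb overlap those of the unclassified Gm43312, on the same strand, which averaged 0.116 CPM.

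The LIM kinases were the least abundant members. Limk1 (chr5:134656039-134688598, GRCm38) measured 13.9, 14.8, 15.4 and 12.7 CPM in P2KO and 15.3, 15.5, 19.6 and 17.1 CPM in P2WT. The highest P2KO library, at 15.37 CPM, was just above the lowest P2WT library, at 15.33 CPM, so the groups overlapped narrowly. P2H2 values of Limk1 were 10.6, 15.6, 20.8 and 16.2 CPM in P2H2KO and 14.9, 14.8, 21.9 and 18.8 CPM in P2H2WT, which overlapped widely. The log2 fold change was −0.24 (SE 0.100, 95% interval −0.46 to −0.01) in P2KO against P2WT, with an unadjusted p of 0.0428 and an adjusted p of 1 from edgeR, so the difference was not called. In P2H2KO against P2H2WT it was −0.15 (SE 0.201, 95% interval −0.61 to 0.30), with an adjusted p from edgeR of 1. The P2H2 value rested on single libraries: it was −0.0058 without P2H2KO replicate 11, −0.03 without P2H2WT replicate 16 and −0.31 without P2H2KO replicate 15, and −0.37 with the late granule and erythroid scores as covariates.

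Of the 11 marker lists, 2 are given beside Limk1, monocytes and macrophages and T and NK cells, which were lower in P2KO. Other lists also lay wholly below or above 0 in P2KO against P2WT. The early granule list had 5 of 5 genes below 0. The erythroid list and the megakaryocyte and platelet list each had 10 of 10 above 0. The 11 monocyte and macrophage genes summed to 2063 to 2809 CPM in P2KO and 2720 to 3376 CPM in P2WT, with none at 0. All 11 of 11 had a log2 fold change below 0 in P2KO against P2WT, with a median of −0.27. Of these, 3 had an unadjusted p from edgeR under 0.05, beside 3.49% of all genes. The 9 T and NK cell genes summed to 65.6 to 91.0 CPM in P2KO and 91.7 to 107 CPM in P2WT, with none at 0. These sums do not overlap, beside 2.25% of single genes that separated in either direction. All 9 of 9 were below 0, with a median log2 fold change of −0.27. An unadjusted p from edgeR under 0.05 was found for 4, beside 3.49% of all genes, and the smallest adjusted p was 0.0688. For P2H2KO against P2H2WT the median of the monocyte and macrophage list was −0.12, with 7 of 11 below 0. Of these 7, 5 had an unadjusted p from edgeR under 0.05, beside 2.63% of all genes. These 5 were Adgre1, C1qa, C1qb, Vcam1 and Mertk, at −0.29 to −0.53, while Cd68 was at −0.12. Above 0 were Csf1r, Ly6c2, Ccr2 and F13a1, at 0.03 to 0.13. The genes are grouped here by their values, so the split follows from that choice. The T and NK cell list there had 7 of 9 below 0 and a median of −0.08. Across libraries, r of Limk1 with the score of the monocyte and macrophage markers was 0.790 in the P2 line (exact permutation p = 0.0124, adjusted 0.0463) and 0.890 in the P2H2 line (exact permutation p = 0.00253, adjusted 0.0153). The rho was 0.714 (exact permutation p = 0.0576, adjusted 0.157) and 0.905 (exact permutation p = 0.00456, adjusted 0.0304), and r without the 2 farthest libraries was 0.490 and 0.858. The part of RNA from these cells in the Limk1 values was not tested.

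Limk2 (chr11:3344256-3409189, GRCm38) had the smallest log2 fold change of the 10 in both lines. It ranged from 33.2 to 43.5 CPM in P2KO, 33.3 to 41.6 in P2WT, 34.7 to 39.4 in P2H2KO and 30.9 to 39.6 CPM in P2H2WT. The log2 fold change was 0.02 (SE 0.107, 95% interval −0.22 to 0.26) in the P2 line and 0.01 (SE 0.087, 95% interval −0.18 to 0.21) in the P2H2 line. No relation between Limk1 and Limk2 was called, with r of 0.152 and −0.322 in the 2 lines (exact permutation p = 0.705 and 0.432, adjusted 0.769 and 0.576), rho of 0.357 and −0.238 (exact permutation p = 0.389 and 0.582, adjusted 0.616 and 0.699) and r of 0.598 and −0.224 without the 2 farthest libraries. With the late granule score, Limk2 had r of 0.933 in the P2 line (exact permutation p = 0.00255, adjusted 0.0153), rho of 0.905 (exact permutation p = 0.00456, adjusted 0.0304) and r of 0.559 without the 2 farthest libraries. The P2H2 line gave r of 0.485 (exact permutation p = 0.228, adjusted 0.402), rho of 0.500 (exact permutation p = 0.216, adjusted 0.393) and r of −0.12 without them. The genes most like Limk2 were Abtb2, Cpne2 and Cd300ld, with r of 0.921, 0.919 and 0.914.

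**Figure D4:**
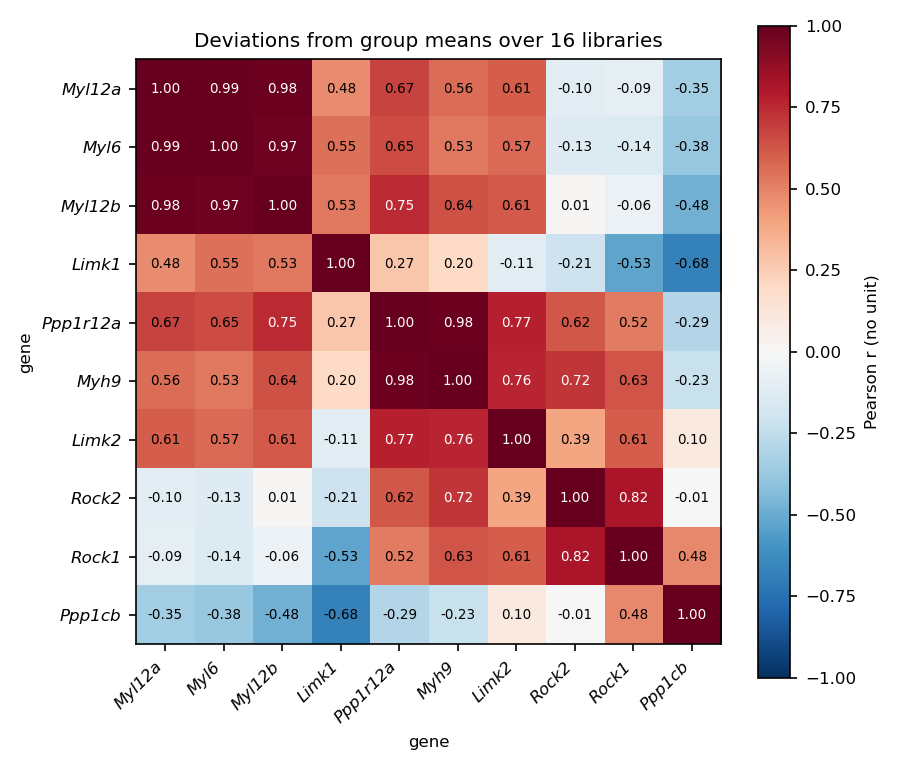
Pearson r between each pair of the 10 transcripts (both axes are genes, colour from −1 to 1 with the value printed), computed on deviations of log2(CPM + 1) from the group means over 16 libraries. The 3 light chains form a block with r from 0.974 to 0.987, Myh9 pairs with Ppp1r12a at 0.979, and the lowest value is −0.68, for Ppp1cb with Limk1.

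Among the 45 pairs of members, 4 had r of deviations above 0.9: the 3 light chain pairs and Myh9 with Ppp1r12a. A further 15 pairs had r below 0, led by Ppp1cb with Limk1 at −0.68 and Rock1 with Limk1 at −0.53. The share of such r among pairs of all genes was not computed, so these counts cannot be called particular to the members. Heavy chain and essential light chain, which are parts of the same motor, were related in the P2 line, with r of Myh9 with Myl6 of 0.876 (exact permutation p = 0.00347, adjusted 0.0139) and rho of 0.690 (exact permutation p = 0.0694, adjusted 0.167). There r was 0.413 without the 2 farthest libraries, and in the P2H2 line r was 0.100 (exact permutation p = 0.804, adjusted 0.804), rho 0.024 (exact permutation p = 0.977, adjusted 0.977) and r without the 2 farthest libraries −0.04. Rock1 with Ppp1r12a, kinase and substrate, had r of 0.606 and 0.483 in the 2 lines (exact permutation p = 0.153 and 0.227, adjusted 0.305 and 0.389), with rho of 0.357 and 0.310 (exact permutation p = 0.389 and 0.462, adjusted 0.616 and 0.616) and r of −0.321 and 0.293 without the 2 farthest libraries.

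The 2 lines were then compared for the change between genotypes itself. No group lacks HIF2α alone. This contrast therefore cannot separate an altered effect of PHD2 loss from an effect of HIF2α loss by itself. Nor can it separate either from a difference between the lines in the change. For the 10 members the P2 change minus the P2H2 change ran from −0.12 for Myl12b (SE 0.209, 95% interval −0.56 to 0.32) to 0.12 for Ppp1cb (SE 0.116, 95% interval −0.12 to 0.37). edgeR called 0 of 10 members, 0 of 10 had an unadjusted p under 0.05, beside 1.51% of 14080 genes, and DESeq2 called 0. Over all genes edgeR made 0 calls for this contrast, with 212 at an unadjusted p under 0.05. The widest interval was that of Myh9, at −0.01 (SE 0.262, 95% interval −0.57 to 0.55), which leaves room for a difference of either sign.

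The rest of the pathway was counted from a list of 75 genes around the members, of which 74 were analysed and 69 passed the filter, among them genes of G12/13 signalling, other light chain kinases, other phosphatase subunits, other myosin II chains, the cofilin arm and other ROCK substrates. edgeR called 0 of 69 in each of the 4 comparisons. In P2KO against P2WT, P2H2KO against P2H2WT and the difference of changes, 0 of 69 had an unadjusted p under 0.05, beside 3.49%, 2.63% and 1.51% of all genes. The median log2 fold change of the 69 was 0.02 in the P2 line and 0.03 in the P2H2 line. In P2WT against P2H2WT, 9 of 69 were higher and 2 lower at an unadjusted p under 0.05, beside 6.94% and 3.10% of all genes. Myo9a, an unconventional myosin, had a log2 fold change of 0.28 (SE 0.069, adjusted p from edgeR 0.103) there. Ppp1r12b, a paralogue of Ppp1r12a, had 0.32 (SE 0.10, adjusted p from edgeR 0.230), and Arhgap35 had 0.29 (SE 0.097, adjusted p from edgeR 0.254). These 3 were named for their small p among genes with at least 5 CPM, so their size follows from that choice. The smallest adjusted p from edgeR among the 69 was 0.0851, for a gene not named under this rule. The 2 lower genes were Arhgef3 at −0.26 and Ppp1ca, another phosphatase catalytic subunit, at −0.20, named after their values were seen, and the 69 ranged from −0.38 to 1.32.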

How the data were processed

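Reads from 16 libraries of sorted mouse bone neutrophils were analysed as 2 tables of raw counts per Ensembl gene that the authors deposited, 1 table for each line, with whole numbers and no normalization per the file headers and values. mm10 and HTSeq are named in the submitters' processing notes without a role or version. Aligner, annotation release, strand use, read length and sort gates are not given in the sources used here. Groups came from the library descriptions and titles. Symbols, coordinates and exon lengths came from GENCODE M21 (GRCm38), which named 49326 of 49585 identifiers; the other 259 held 0.00714% of counts. Pdxp of the pathway list and Ahsp of the erythroid list were not analysed here.

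Low counts were removed by filterByExpr (edgeR 4.0.16), libraries were scaled by TMM and genes were tested with glmQLFit (robust) and glmQLFTest, two-sided, with Benjamini-Hochberg adjustment over all genes tested and a threshold of 0.05. Each line was fitted on its own 8 libraries. The difference of the changes and P2WT against P2H2WT came from a fit of all 16. Standard errors were computed from the F statistic. CPM values were computed from the deposited counts with TMM-scaled library sizes of the 16-library fit. Exact permutation tests and correlations used log2(CPM + 1) within a line, with scipy 1.17.1 and numpy 2.4.6. Near-identical transcripts were searched with blastn 2.17.0, at 95% identity over 200 bases or more. Alternatives were DESeq2 1.42.0, RLE size factors, omitting the filter or asking for 10 counts per library, covariates (the m or f suffix of the titles, or the late granule and erythroid scores), a 16-library fit, a pseudocount of 0.25, and leaving out each library. The fits were tested on simulated data. Some groups of the pathway list are counted in its totals but not reported by themselves here. The members and lists were chosen with earlier results of these data known. Named genes are the 10 members, up to 3 other pathway genes per comparison with the smallest p under 0.05 and at least 5 CPM, the 3 genes most like 6 of the members, and the markers and overlapping genes given as checks, which were chosen after their values were seen.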

Additional observations from a re-analysis of the deposited data

Results flagged for a closer look

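Of 40 groups of 4 libraries tested for a single library far from the rest, which chance flags in about 1 of 20, 3 were flagged. Myh9 in P2KO replicate 6 stood at 2843 CPM, with a gap to the nearest library of 0.856 of the group's range. Ppp1r12a in the same library stood at 204 CPM, with a gap of 0.890 of the range. Rock2 in P2H2KO replicate 17 stood low, at 74.0 CPM, with a gap of 0.872 of the range. In P2KO replicate 6 the late granule markers summed to 45898 CPM and the erythroid markers to 26112 CPM, the highest and lowest of the P2 line, and their part in the 2 high values was not tested.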

How the results depend on the processing

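No paired analysis was possible because no replicate number is shared between groups. Over 480 values from fits that left out 1 library, 432 kept their direction and side of the threshold and 48 changed sign. Over 278 values under other settings, 255 kept both, 18 changed sign and 5 moved past the threshold, and the cause was not tested. These 278 include values of the contrast of the lines over both genotypes, set beside P2WT against P2H2WT although it is another comparison. Genes called in P2KO against P2WT numbered 6, and 23 with DESeq2, 23 with the marker scores as covariates and 10 in the 16-library fit. In P2H2KO against P2H2WT there were 10, and 42 with DESeq2 and 21 with the scores. In P2WT against P2H2WT there were 32. Other settings gave 9 without a filter, 0 with at least 10 counts in every library, 291 with DESeq2 and 124 with the suffix covariate. Members called there were 0, and 1 with DESeq2 and 2 with the suffix covariate. The contrast of the lines over both genotypes, which is another comparison, called 776 genes and 2 members. Leaving out 1 library gave 4 to 6, 6 to 9, 0 to 0 (difference of changes) and 0 to 182 genes. The last count was 0 without P2WT replicate 3, 4 or 7 or P2H2WT replicate 13, 1 without P2WT replicate 10 or P2H2WT replicate 16, and 182 without P2KO replicate 9. No member was called in any fit without 1 library.

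With the scores as covariates Myl12b was 0.0055 in the P2 line, and Myl12a, Myl12b and Myl6 were −0.0476, −0.0386 and −0.0849 in the P2H2 line. With the suffix covariate these 3 were −0.0282, −0.0028 and −0.0585. For the difference of changes, Limk2 was 0.0081 without a filter, Rock1 −0.0758 and Limk1 0.0618 with the suffix, and with the scores Rock1 was −0.0068, Myh9 0.0699, Myl12a 0.0218, Myl12b 0.0325, Myl6 0.050, Ppp1r12a 0.0290, Limk1 0.1190 and Limk2 0.0234. Leaving out 1 library in the P2 line gave −0.13 to 0.19 for Myh9, −0.15 to 0.014 for Myl12a, −0.19 to 0.060 for Myl12b, −0.18 to 0.025 for Myl6, −0.10 to 0.10 for Ppp1r12a and −0.071 to 0.091 for Limk2. In the P2H2 line it gave −0.051 to 0.080 for Myl12a, −0.075 to 0.10 for Myl6 and −0.055 to 0.053 for Limk2. For the difference of changes it gave −0.043 to 0.099 for Rock1, −0.086 to 0.014 for Rock2, −0.24 to 0.084 for Myh9, −0.21 to 0.0053 for Myl6, −0.20 to 0.0054 for Ppp1r12a, −0.24 to 0.068 for Limk1 and −0.094 to 0.065 for Limk2. In P2WT against P2H2WT it gave −0.16 to 0.061 for Limk1 and −0.054 to 0.060 for Limk2, and Rock2 stayed between 0.25 and 0.31 and Rock1 between 0.18 and 0.30. Depth limits Limk1 most, with 246 to 580 reads per library.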
